A study of Arabidopsis thaliana with 6 samples.

Results

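The probe sets described here measure enzymes of abscisic acid (ABA) synthesis and their closest title-mates on an Arabidopsis thaliana expression array. They were chosen by name. They are ABA1 (zeaxanthin epoxidase), AAO3 (an aldehyde oxidase), and every probe set whose title in the authors' deposited table contains epoxycarotenoid, neoxanthin cleavage or aldehyde oxidase. This gave 12 of the 22746 probe sets tested, namely 1 for ABA1, 7 with a dioxygenase title and 4 with an aldehyde oxidase title. The rule uses names and titles and no measured value. However, the members and the gene lists below were chosen with earlier results of these data known.

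Seeds of the anac089-2 mutant in the Columbia-0 (Col-0) background were compared with wild-type Col-0 seeds, with 3 biological replicates each. ANAC089 is a NAC family transcription factor, and the labels do not say whether the allele lowers or raises its activity. All seeds, mutant and wild type, had been kept for 3 days in water at 4 °C in the dark. They were then moved to 22 °C and light, where they spent 3 h in 5 µM ABA. No seeds without ABA were analysed here, so every level below is one in the presence of added hormone. Each value is the log2 expression of a probe set on 1 array, scaled by robust multi-array averaging (RMA).

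Plants make ABA from carotenoids in the plastid. Zeaxanthin epoxidase turns zeaxanthin into violaxanthin, and 9-cis-epoxycarotenoid dioxygenases (NCEDs) cut 9-cis-epoxycarotenoids derived from it into xanthoxin, the step usually taken as limiting. In the cytosol a short-chain dehydrogenase (ABA2) and an abscisic aldehyde oxidase (AAO3) finish the hormone, the oxidase with a sulphurated molybdenum cofactor that ABA3 supplies. In seeds, ABA made by the embryo and endosperm holds dormancy and delays germination.

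Wild-type replicate 3 stood apart from the other arrays, with a median log2 level of 3.80 against 3.97 to 4.01 on the others, and a mean correlation with its own group of 0.982 against 0.987 to 0.996. Values without it are given where it matters. No probe set was analysed under the name ANAC089, so the labels were not checked against the mutated gene. The tissue label was checked on embryo maturation genes. The seed protein gene EM6 had a mean log2 level of 14.0 in both groups, and EM1 had 11.6 in anac089-2 and 12.4 in wild type.

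In anac089-2 seeds, ABA1 fell 1.62-fold and 1 dioxygenase probe set, 254564_at, fell 2.53-fold, while no aldehyde oxidase probe set was shown to differ. A further dioxygenase probe set, 260797_at, was 1.71-fold lower but did not pass the test. The aldehyde oxidase AAO1 and the carotenoid dioxygenase CCD1 were 1.11-fold and 1.08-fold lower and did not pass. The other members had levels near or below the median of all probe sets, where few probe sets passed in either direction. Of the 12 members 2 fell, 0 rose and 10 did not pass, at a limma p-value adjusted over all probe sets (Benjamini-Hochberg) under 0.05. At an unadjusted limma p under 0.05 there were 4 lower and 0 higher, where 6.12% of all probe sets were lower and 13.2% higher. ABA1, 254564_at and 260797_at, among these 4, had mean log2 levels of at least 6, where 15.0% were lower and 24.4% higher. Over all probe sets 4.92% passed in either direction and 1.98% fell. The groups did not overlap for 5 members, each lower in anac089-2, against 8.23% of all probe sets lower without overlap and 24.0% without overlap in either direction. Brighter probe sets passed more often. Of the 5 members with a mean log2 level of at least 6, 2 fell and 4 were lower without overlap, where 12.6% of all probe sets that bright passed, 5.70% fell and 17.1% were lower without overlap. The median difference of the members was -0.14 on the log2 scale, beside 0.04 over all probe sets. In bulk seeds, fewer cells that express a gene and less of its RNA per cell cannot be told apart.

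**Figure D1:**
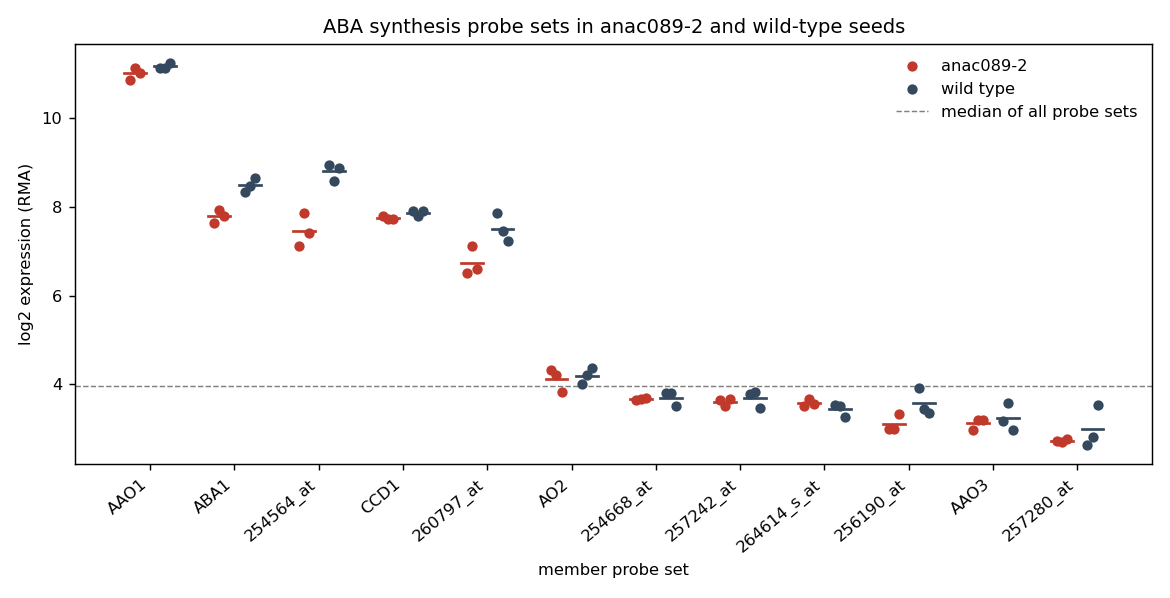
Log2 expression (RMA) of the 12 members on every array, anac089-2 left of wild type for each, with a bar at the group mean and a dashed line at 3.96, the median over all probe sets of their mean level. ABA1, 254564_at and 260797_at have all 3 anac089-2 points below all 3 wild-type points, while the 6 members at the right lie below the dashed line by their mean.

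ABA1 (AT5G67030 in RefSeq, matched by symbol) is measured by the probe set 247025_at. Its log2 level was 7.65, 7.94 and 7.79 in anac089-2 seeds, against 8.35, 8.47 and 8.66 in wild-type seeds. The highest mutant array lay 0.41 below the lowest wild-type array, and wild-type replicate 3 held the highest value. The difference was -0.70 ± 0.125 (SE, n = 3 per group, limma adjusted p = 0.0264), with a 95% interval from -0.99 to -0.41. The call depended on which arrays were kept. ABA1 passed without wild-type replicate 1 (-0.77, adjusted p = 0.0490) and without wild-type replicate 3 (-0.62, adjusted p = 0.0269). It did not pass without wild-type replicate 2 (adjusted p = 0.0781) or without anac089-2 replicate 1 (0.133), 2 (0.0591) or 3 (0.123). Without anac089-2 replicates 1 and 3 in turn, 6 and 4 of all probe sets passed.

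The dioxygenase titles cover 7 probe sets. One names CCD1, a dioxygenase that cleaves many carotenoids into volatile products and is not known for ABA synthesis. The other 6 share a single title, a putative 9-cis-epoxycarotenoid dioxygenase, and are known here only by probe set. RefSeq lists 6 genes with an NCED symbol (NCED2, NCED3, NCED4, NCED5, NCED6 and NCED9), and no source used here pairs them with these probe sets. NCED4 is also called CCD4, an enzyme known for carotenoid turnover, so a probe set of this title need not measure an ABA synthesis gene.

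The probe set 254564_at had log2 levels of 7.12, 7.86 and 7.42 in anac089-2, against 8.94, 8.60 and 8.88 in wild type. The groups did not overlap, and their nearest arrays, replicate 2 of each, were 0.74 apart. The difference was -1.34 ± 0.197 (SE, n = 3 per group, limma adjusted p = 0.0164), with a 95% interval from -1.80 to -0.88. It was the largest difference among the members in either direction. It passed without anac089-2 replicate 2 (-1.54, adjusted p = 0.0224) and without wild-type replicate 3 (-1.30, adjusted p = 0.0222). It missed the threshold without anac089-2 replicates 1 (adjusted p = 0.0779) and 3 (0.0974), and without wild-type replicates 1 (0.0519) and 2 (0.0513).

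The probe set 260797_at had log2 levels of 6.51, 7.12 and 6.6 in anac089-2, against 7.87, 7.45 and 7.23 in wild type. The groups did not overlap, but anac089-2 replicate 2 came within 0.11 of wild-type replicate 3. The difference was -0.77 ± 0.216 (SE, n = 3 per group, limma adjusted p = 0.0967), with a 95% interval from -1.28 to -0.27. This member did pass when the arrays were scaled again, with adjusted p-values of 0.0341 after a second quantile normalization, 0.0395 after centring on array medians and 0.0265 after cyclic loess. It also passed without wild-type replicate 3 (-0.92, adjusted p = 0.0491). More of all probe sets passed under these settings too. Their count was 1701, 1479 and 1784 under the 3 scalings and 1667 without that array, against 1120 in the main fit.

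CCD1 (AT3G63520 in RefSeq, matched by symbol) had log2 levels of 7.80, 7.74 and 7.74 in anac089-2, against 7.91, 7.81 and 7.91 in wild type. The nearest arrays of the groups were 0.01 apart. The difference was -0.12 ± 0.090 (SE, n = 3 per group, limma adjusted p = 0.547), and its 95% interval ran from -0.33 to 0.09.

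The remaining dioxygenase probe sets were dim. On the 6 arrays 254668_at, 257242_at, 256190_at and 257280_at did not exceed 3.92, and their mean levels lay below the median of all probe sets. Their differences were -0.03, -0.09, -0.46 and -0.27, and none passed. For 256190_at the 3 anac089-2 values, 3.00, 2.99 and 3.33, were below the 3 wild-type values of 3.92, 3.44 and 3.35 (limma adjusted p = 0.209). At levels under the median of all probe sets, 6 of 11372 probe sets fell and 22 rose.

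**Figure D2:**
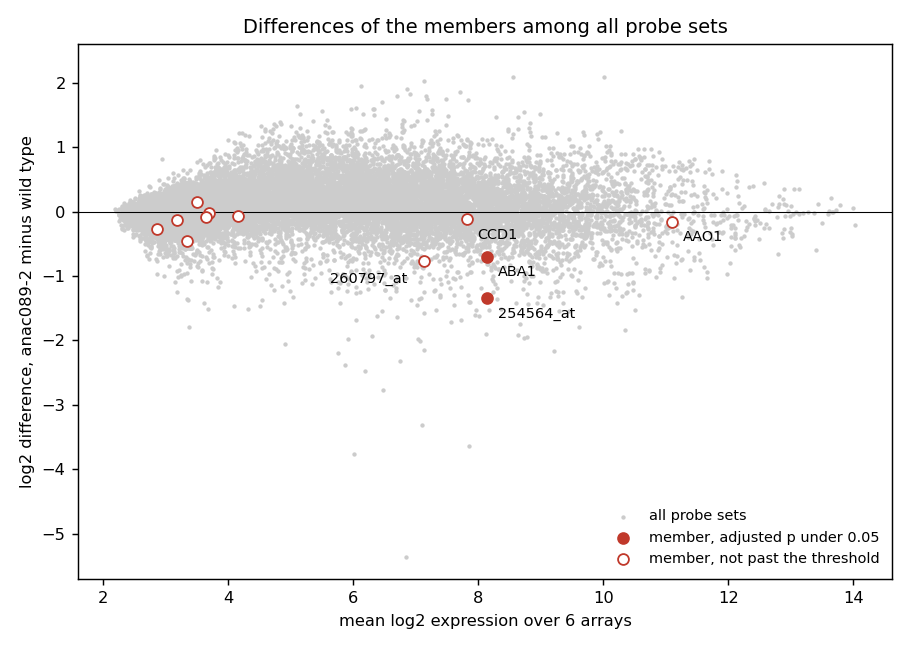
Log2 difference, anac089-2 minus wild type, against the mean log2 level over 6 arrays for all 22746 probe sets (grey) and the 12 members (circles, filled where the limma adjusted p was under 0.05). ABA1 at -0.70 and 254564_at at -1.34 are filled, AAO1 and CCD1 lie close to 0, and the dim members at the left spread little.

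The aldehyde oxidases were not shown to differ, with 0 of 4 past the limma threshold and also 0 of 4 at an unadjusted p under 0.05. Over all probe sets 4.92% passed the limma threshold, and at the unadjusted one 6.12% were lower and 13.2% higher. These enzymes oxidise aldehydes with a molybdenum cofactor, and AAO3 is the one known for the last step of ABA synthesis. The AAO3 probe set 263570_at had log2 levels of 2.97, 3.20 and 3.20 in anac089-2, against 3.18, 3.59 and 2.98 in wild type. The groups overlapped, and all 6 values were below the median of all probe sets. The difference of -0.13 ± 0.168 (SE, limma adjusted p = 0.744) had a 95% interval from -0.52 to 0.27, and its sign turned without wild-type replicate 2 (0.04). In RefSeq the symbol AAO3 belongs to AT2G27150, while AO3, the authors' symbol for this probe set, is also a synonym of AAO2, so the title alone names the gene.

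AAO1 (AT5G20960 in RefSeq, matched by symbol), an aldehyde oxidase with a known preference for indole-3-acetaldehyde, had log2 levels of 10.87, 11.15 and 11.03 in anac089-2, against 11.14, 11.13 and 11.25 in wild type. The groups overlapped through anac089-2 replicate 2. The difference was -0.16 ± 0.108 (SE, n = 3 per group, limma adjusted p = 0.498), with a 95% interval from -0.41 to 0.10. The difference measured for ABA1, -0.70, lay outside this interval. However, the 95% interval of ABA1 reached up to -0.407 and that of AAO1 down to -0.411, so the intervals overlapped narrowly. The log2 ratio of AAO1 over ABA1 was 3.21 to 3.24 in anac089-2, against 2.59 to 2.79 in wild type, a change of 0.54. Its exact two-sided permutation p was 0.1, the smallest that 3 against 3 arrays allow, and 0.143 adjusted over 10 pairs of members. This test could therefore not establish an unequal change.

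The probe set titled AO2, a putative aldehyde oxidase, had log2 levels of 4.32, 4.22 and 3.83 in anac089-2, against 4.01, 4.21 and 4.37 in wild type. The groups overlapped over most of their range, and the difference was -0.07 ± 0.160 (SE, limma adjusted p = 0.851), turning positive without anac089-2 replicate 3 (0.07) or wild-type replicate 3 (0.01). The probe set 264614_s_at, which is of a type whose probes match several similar sequences and is titled for 2 putative aldehyde oxidases, had a difference of 0.14 (limma adjusted p = 0.554). It was the 1 member of the 12 with a positive difference.

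For the 5 members with a mean log2 level of at least 6, the ratio of 2 of them on the same array shows whether they changed unequally. Of 10 such pairs, the ratios of the groups did not overlap for 7, where 48.6% of all pairs of probe sets that bright did not overlap. The largest changes were those of 254564_at over CCD1 (-1.22) and AAO1 over 254564_at (1.18). For 254564_at over 260797_at the log2 ratio was 0.61 to 0.82 in anac089-2, against 1.07 to 1.65 in wild type, a change of -0.57. For ABA1 over CCD1 it was -0.15 to 0.20 in anac089-2, against 0.44 to 0.75 in wild type, a change of -0.58. Both had an exact two-sided permutation p = 0.1, the smallest that 3 against 3 arrays allow, and 0.143 adjusted over the 10 pairs. ABA1 over 260797_at changed by 0.07 and AAO1 over CCD1 by -0.04, with overlapping ranges (exact p = 0.8 each). No pair could reach 0.05 in this design.

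Among the mutant arrays the same replicate stood highest for several members. In anac089-2, ABA1, 254564_at, 260797_at and AAO1 each had their highest value on replicate 2 and their lowest on replicate 1, while CCD1 had its highest on replicate 1. In wild type there was no shared order, since ABA1 and AAO1 were highest on replicate 3 and 254564_at and 260797_at on replicate 1. Over the 6 arrays the deviations from the group means correlated with r = 0.89 for ABA1 and AAO1 and r = 0.88 for AAO1 and 254564_at. For 254564_at, r was 0.72 with 260797_at and 0.60 with ABA1. For 260797_at, r was 0.36 with AAO1 and -0.04 with ABA1. Pairs with CCD1 had r from -0.22 to -0.002. These are descriptions of 6 arrays that share their scaling.

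**Figure D3:**
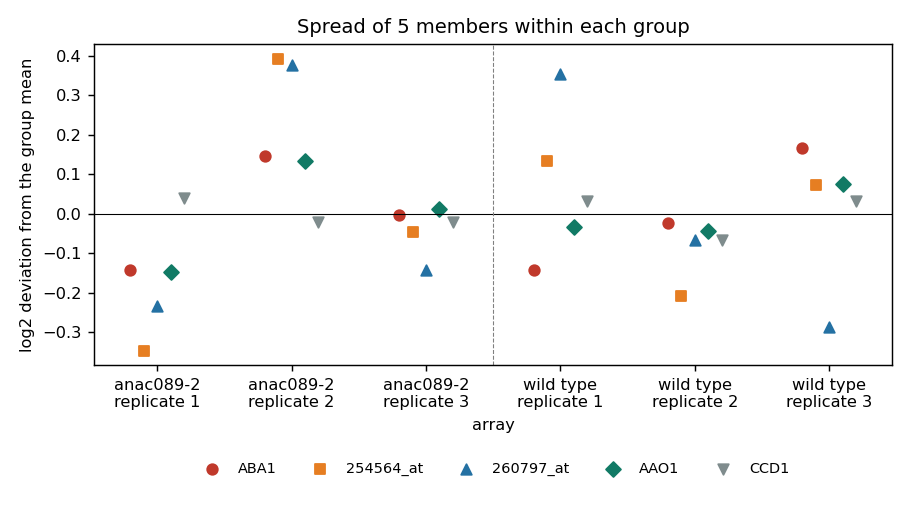
Deviation of 5 members from the mean of their own group (log2) on each array, with anac089-2 at the left and wild type at the right of the dashed line. On anac089-2 replicate 2 the members ABA1, 254564_at, 260797_at and AAO1 lie above 0 by 0.13 to 0.39, and on wild-type replicate 3 the probe set 260797_at lies 0.29 below while ABA1 lies 0.17 above.

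The probe sets whose levels followed ABA1 most closely were sought among 3544 with 1 gene symbol and a mean log2 level of at least 6. Over the 6 arrays the highest Pearson correlations were those of AT3G07790 (DGCR14-related, r = 0.997), AT2G36950 (heavy-metal-associated domain protein, r = 0.995), AT1G03890 (cupin family, r = 0.995), AT1G67820 (a putative protein phosphatase 2C, r = 0.992) and AT3G03150 (expressed protein, r = 0.991). Of these, AT3G03150 (-1.23), AT1G03890 (-0.98) and AT1G67820 (-0.89) fell, with limma adjusted p-values of 0.0120, 0.0154 and 0.0217. The other two, AT2G36950 (-0.53, adjusted p = 0.0505) and AT3G07790 (-0.25, adjusted p = 0.205), did not pass. For AAO1, chosen by its mean signal, the closest were AT3G54940 (a putative cysteine proteinase, r = 0.958), AT3G27700 (r = 0.956), AT3G22980 (r = 0.944), AT1G76590 (r = 0.938) and AT5G17380 (r = 0.925), and none of these 5 passed. The arrays fall into 2 groups, so these correlations follow the group difference as well as the spread within groups.

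Upstream of ABA1, the supply of carotenoid precursors held 1 call, in the other direction. PSY, the phytoene synthase that commits isoprenoids to carotenoids, had log2 levels of 7.12, 6.69 and 6.79 in anac089-2, against 6.11, 5.84 and 5.28 in wild type. The groups did not overlap, and wild-type replicate 3 was the lowest array. PSY rose 2.18-fold (1.12 ± 0.223, SE, n = 3 per group, limma adjusted p = 0.0353). Of 23 measured probe sets of precursor supply, 12 of them paralogues titled geranylgeranyl pyrophosphate synthase, 1 rose, 0 fell and 22 did not pass, where 2.94% of all probe sets rose. At an unadjusted limma p under 0.05, 4 of the 23 were higher and 0 lower, against the 13.2% of all probe sets that were higher. Their median difference was 0.06, against 0.04 over all probe sets. The desaturase genes PDS (0.01) and ZDS (-0.10), named after their values were seen, did not pass. Neither did CLA1 (0.55, limma adjusted p = 0.118) and HDR (0.31, adjusted p = 0.152), named likewise. The groups did not overlap for 3 of the 23, PSY, CLA1 and HDR, each higher, against 24.0% of all probe sets in either direction. Of the 12 paralogues, all but 246198_at and 252996_s_at had mean levels of at most 3.50 in each group, below the median of all probe sets. PSY missed the threshold when any 1 of the mutant replicates or wild-type replicate 2 was left out (adjusted p = 0.0892 to 0.168).

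Directly before ABA1, the 2 probe sets titled beta-carotene hydroxylase, which makes zeaxanthin, differed in sign. The probe set 248311_at fell 1.85-fold, with log2 levels of 8.77, 9.12 and 9.38 in anac089-2, against 10.03, 9.77 and 10.14 in wild type (-0.89 ± 0.176, SE, n = 3 per group, limma adjusted p = 0.0354). Its call was lost when any 1 array other than wild-type replicate 3 was left out (adjusted p = 0.0698 to 0.133). The second, 254020_at, named after its value was seen, had 8.89, 8.55 and 8.66 in anac089-2, against 8.49, 8.48 and 8.13 in wild type (0.33, limma adjusted p = 0.263). Neither pair of groups overlapped. The log2 ratio of the first to the second was -0.12 to 0.72 in anac089-2, against 1.29 to 2.01 in wild type, a change of -1.22. Its exact two-sided permutation p was 0.1, the smallest that 3 against 3 arrays allow. The pair was set side by side after the values were seen. Of 5 measured genes of xanthophylls and the xanthophyll cycle, ABA1 included, 2 fell (ABA1 itself and 248311_at), 0 rose and 3 did not pass. Without ABA1, 1 of 4 fell. Over all probe sets 1.98% fell, and 5.70% of those with a mean log2 level of at least 6, as ABA1 and 248311_at had. NPQ1, the violaxanthin de-epoxidase that turns violaxanthin back into zeaxanthin, had a difference of -0.04 and was named after its value was seen.

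**Figure D4:**
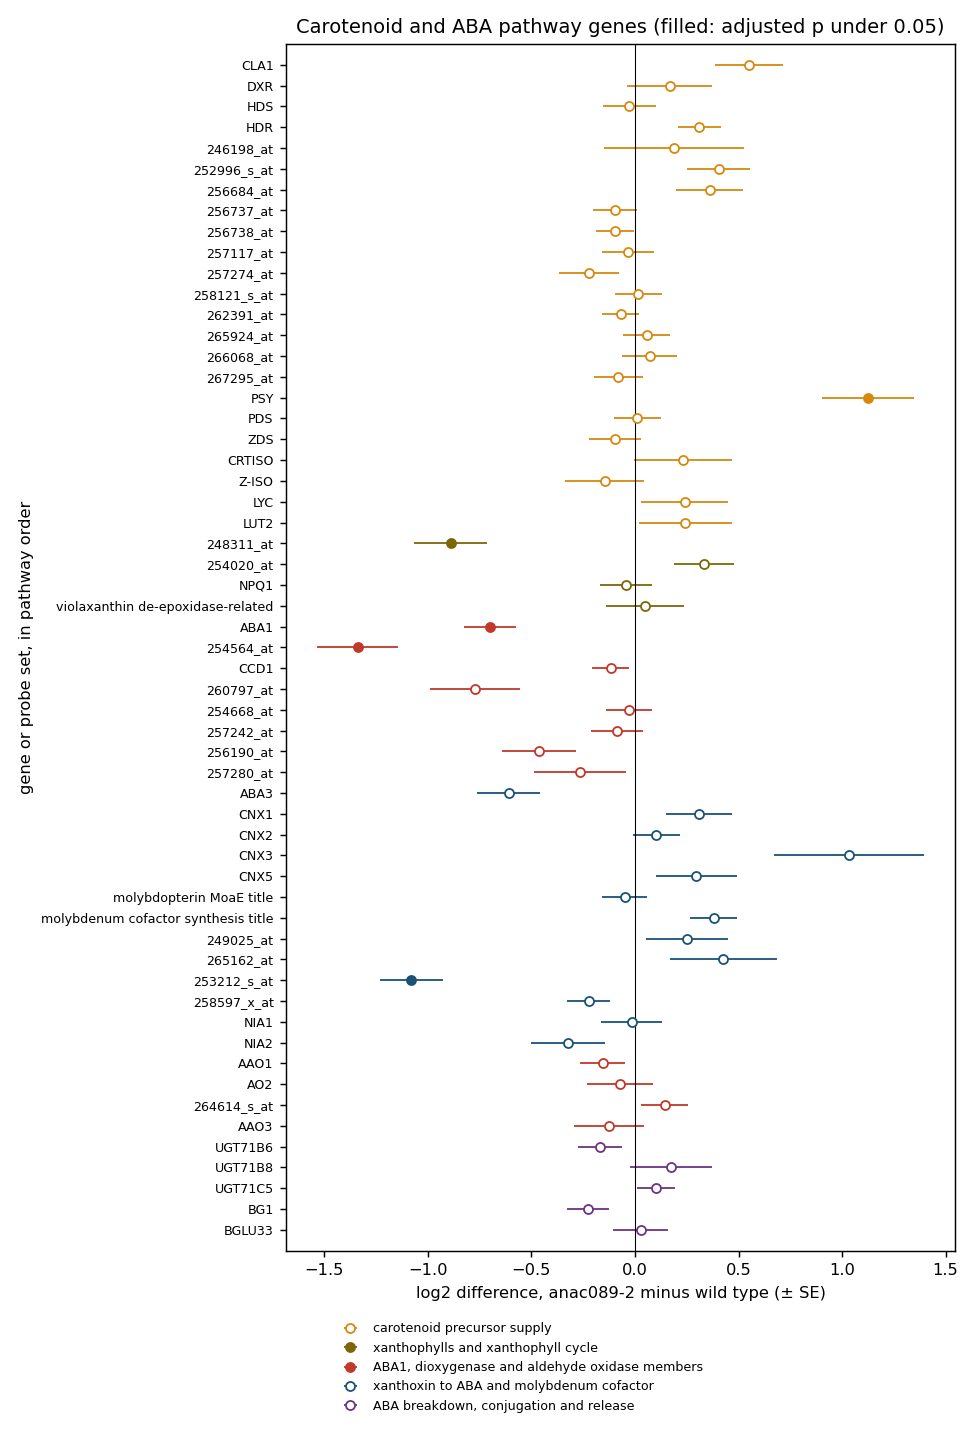
Log2 difference, anac089-2 minus wild type, with its SE for the measured probe sets of carotenoid supply, xanthophylls, the members (red), cofactor synthesis and ABA breakdown, from the first steps at the top. Filled points passed a limma adjusted p under 0.05, and they are PSY at 1.12, 248311_at at -0.89, ABA1 at -0.70, 254564_at at -1.34 and 253212_s_at at -1.08.

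The genes around the last step and its cofactor held 1 call. Of 16 measured probe sets, the aldehyde oxidases AAO1, AO2 and AAO3 included, 1 fell, 0 rose and 15 did not pass. Over all probe sets 1.98% fell and 4.92% passed in either direction. The median difference was -0.03, against 0.04 over all probe sets. At an unadjusted limma p under 0.05 there were 4, of which 2 were higher, where 6.12% of all probe sets were lower and 13.2% higher. The groups did not overlap for 6, 3 lower and 3 higher, against 24.0% of all probe sets. The one that fell, 253212_s_at, is titled for 2 putative xanthine dehydrogenases, molybdenum enzymes of purine breakdown that need the same sulphurated cofactor. It had log2 levels of 7.53, 7.89 and 7.68 in anac089-2, against 8.53, 8.97 and 8.84 in wild type, without overlap, and fell 2.11-fold (-1.08 ± 0.151, SE, n = 3 per group, limma adjusted p = 0.0146). It missed the threshold without anac089-2 replicates 1 (0.0853) and 3 (0.0880) and without wild-type replicate 2 (0.0537).

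ABA3, the cofactor sulphurase, was named after its value was seen. Its log2 levels were 4.56, 4.48 and 4.32 in anac089-2, against 5.37, 4.92 and 4.90 in wild type. The groups did not overlap, and the difference of -0.61 ± 0.152 (SE, n = 3 per group) had a limma adjusted p of 0.0687. It passed after a second quantile normalization (adjusted p = 0.0156), median centring (0.0265) and cyclic loess (0.0132), and without wild-type replicate 3 (0.0431). CNX3, an early cofactor synthesis gene also named after its value was seen, had 1.03 (limma adjusted p = 0.173), and 0.56 without wild-type replicate 3 (adjusted p = 0.0227).

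Genes that remove or release ABA were not shown to differ, as far as they were measured. Of 5 measured, 0 passed in limma, where 4.92% of all probe sets passed, and 0 had an unadjusted p under 0.05. BG1, BGLU33 and UGT71B6 of this list were dim, with mean log2 levels of 2.51 to 3.17 in anac089-2 and 2.48 to 3.34 in wild type. These levels lay below 3.96, the median of all probe sets, where few probe sets passed in either direction. The largest differences were those of BG1, a beta-glucosidase that frees ABA from its glucose ester, at -0.23, and of UGT71B8, titled as a glucosyltransferase, at 0.17, which turned to -0.05 without wild-type replicate 3. UGT71C5, which attaches glucose to ABA and was named after its value was seen, had log2 levels of 7.42, 7.35 and 7.42 in anac089-2, against 7.28, 7.24 and 7.37 in wild type (0.10, limma adjusted p = 0.619). CYP707A hydroxylases, ABA2 and the ABA transporters of the list were not analysed here under a name. Of 12 measured genes known to respond to ABA, 3 fell (RD29B, EM1 and RD29A), 0 rose and 9 did not pass, with a median of -0.21, where 1.98% of all probe sets fell. At an unadjusted limma p under 0.05 there were 5, where 6.12% of all probe sets were lower and 13.2% higher. Of the 5, 2 were higher. These were the transcription factor genes ABI4 (0.72, limma adjusted p = 0.0622) and ABI3 (0.50, adjusted p = 0.106), named after their values were seen. The groups did not overlap for 7 of the 12, 4 lower and 3 higher, ABI4 and ABI3 among them, against 24.0% of all probe sets in either direction. RD29B, EM1, ABI4 and ABI3 had mean log2 levels of at least 6, where these shares were larger. Of all 6842 probe sets that bright, 3065 did not overlap in either direction and 5.70% fell. At an unadjusted limma p under 0.05, 15.0% of them were lower and 24.4% higher. The EM1 and RD29A calls were lost when any 1 array other than wild-type replicate 3 was left out (adjusted p = 0.0532 to 0.136), and that of RD29B without anac089-2 replicates 1 (0.0853) and 3 (0.0824) and wild-type replicate 2 (0.0537).

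Genes listed as markers of seed tissues were looked at beside these values. Whether each marks its tissue in seeds of this stage was not tested. None passed of 5 measured for endosperm (FIE 0.71 and FIS2 -0.20), 4 for seed coat (GL2 -0.24 and TT12 0.05) and 5 for embryo (PDF1 -0.65 and FDH, FIDDLEHEAD, 0.57). Over all probe sets 4.92% passed, so lists this short would hold few calls in any case. Without wild-type replicate 3 the difference of FIE was 0.27 (limma adjusted p = 0.318). At an unadjusted limma p under 0.05 there were 0 for endosperm, 0 for seed coat and 2 for embryo, PDF1 and FDH. Over all probe sets 6.12% were lower and 13.2% higher at that threshold. TT12 turned negative under other scalings (-0.066 after quantile normalization, -0.04 after median centring and -0.11 after cyclic loess). PDF1 passed after quantile normalization and cyclic loess and without wild-type replicate 3 (-0.91, adjusted p = 0.0245). Seed coat markers ranged in mean level from 2.76 to 4.27 in anac089-2 and 2.71 to 4.22 in wild type, near the bottom of the scale. The endosperm markers FIS2, FWA, MEA and ALE1 were about as low, at 2.78 to 4.20 in anac089-2 and 2.74 to 4.07 in wild type. So were the embryo markers CLV3, LEC1 and STM, at 3.02 to 4.37 in anac089-2 and 3.05 to 4.37 in wild type. The part of tissue proportions in the falls of ABA1 and 254564_at was not tested.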

How the data were processed

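Total RNA of 6 seed samples was hybridised to 1 array each after biotin labelling, per the labels' protocols. Per the submitters' processing notes, which name RMA and limma, the deposited value of a probe set on an array is its RMA log2 expression. No source used here gives the array definition file or the settings. Their comparison table gives log2 ratios and limma p-values with FDR, per the file headers. 4 FDR cells without a decimal point were read as 1, and 6 columns of per-array values were not used.

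After 64 control probe sets were set aside, 22746 were fitted with limma 3.58.1 in R 4.3.3 (lmFit, eBayes, 2 groups, no block, Benjamini-Hochberg over all, threshold 0.05). Differences are anac089-2 minus wild type. Log2 ratios in the authors' deposited table differed by at most 0.0133. The number of arrays limits the precision. The fit was tested on simulated data. Plots used matplotlib 3.10.9.

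None of the 12 members is listed in the platform's probe table, so names come from the authors' titles, and locus identifiers from RefSeq (TAIR10.1) by symbol. The members and gene lists were chosen with earlier results of these data known. The text gives array values for members at or above the median level of all probe sets and for ABA1 and AAO3, and of each list the members past the threshold or else the 2 with the largest difference. Those for ABA response are named without values. For likeness it gives the 5 highest Pearson correlations.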

Additional observations from a re-analysis of the deposited data

How the results depend on the processing

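The alternatives were 3 further scalings, a filter on dim probe sets, 4 other fits, the authors' deposited statistics, 2 other thresholds and leaving out each array. In anac089-2 against wild type, ABA1 and 254564_at kept a negative difference under all of them. Where a setting moved a value, the cause was not tested, except that a threshold of 0.01 or 0.1 moves calls by construction. Filtering out the dimmest 40% removed AAO3, 256190_at and 257280_at, which have no value there.

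The count over all probe sets, 1120, became 494 with the replicate block, 45 at a threshold of 0.01 and 2043 at 0.1, 1701 after quantile normalization, 2070 with array weights and 1784 after cyclic loess, and 4 to 1667 with 1 array left out. The count of members past the threshold, 2, became 1 with the replicate block and 0 at 0.01, and ran from 0 to 3 with 1 array left out. Residuals of arrays that share a number correlated with r = -0.09, -0.06 and -0.14 for the 3 numbers, so the numbers were not taken to pair the samples. ABA1 (-0.70) had an adjusted p of 0.0564 with the replicate block, and at 0.01 neither ABA1 (-0.70) nor 254564_at (-1.34) passed. The replicate block also ended the calls of 248311_at (adjusted p = 0.0535), EM1 (0.0681) and RD29A (0.0658). The probe set 260797_at passed after quantile normalization (-0.90), median centring (-0.86), cyclic loess (-0.91), array weights (-0.82) and at 0.1 (-0.77).

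With 1 array left out, differences ran from -0.77 to -0.62 for ABA1, -1.54 to -1.17 for 254564_at, -0.96 to -0.60 for 260797_at, -0.17 to 0.073 for AO2, -0.13 to 0.018 for 254668_at, -0.26 to 0.043 for AAO3 and -0.45 to 0.01 for 257280_at. Single sign changes were 0.073 (AO2 without anac089-2 replicate 3), 0.013 (AO2 without wild-type replicate 3), 0.018 (254668_at without wild-type replicate 1 or 2), 0.043 (AAO3 without wild-type replicate 2) and 0.005 (257280_at without wild-type replicate 3).

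Of the lists, precursor supply (1 call) gave 2 after quantile normalization, 0 at 0.01 and 0 to 1 with 1 array left out. Xanthophylls (2 calls) gave 0 with the replicate block, 0 at 0.01 and 0 to 2 with 1 array left out. The last step and cofactor (1 call) gave 2 after quantile normalization, median centring, cyclic loess, the dim filter, array weights and at 0.1, 0 at 0.01, and 0 to 3 with 1 array left out. ABA response (3 calls) gave 1 with the replicate block, 0 at 0.01 and 0 to 3 with 1 array left out. Embryo markers (0 calls) gave 1 after quantile normalization, cyclic loess and array weights, and 0 to 1 with 1 array left out. TT12 (0.05) turned to -0.066 (quantile), -0.04 (median centring), -0.11 (cyclic loess), -0.046 (array weights), -0.075 (without anac089-2 replicate 2) and -0.08 (without wild-type replicate 3), with 0.145 at most when 1 array was left out. UGT71B8 (0.17) turned to -0.047 without wild-type replicate 3, and had 0.34 at most. Over the differences recomputed, 411 kept their direction and call, 45 lost a call, 18 gained one and 13 changed sign. Of the counts recomputed, 134 stayed within 1.5 times and 53 did not. Signal over background was not analysed here.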
